A study of Homo sapiens with 10 samples.

Results

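The baseline transcriptome of Wnt3a-treated control cells was read from the 5 libraries that carry the control siRNA label (siCtrl), of 10 libraries in the series. The labels give the cells as human endothelial cells from brain, named HCMECs in the study's design text and recorded as a cell line whose name is not given. Their endothelial markers go against that label, as described below. They received a control small interfering RNA, an RNA duplex meant to leave gene levels as they are, for 48 h. Wnt3a, a secreted ligand that stabilises beta-catenin, was given for 12 h. Every library shares the transfection and the ligand, no unstimulated or untransfected cells were used here, and the knockdown libraries enter no value below. Whether these 5 libraries came from separate cultures is not said in the labels, so the SD between them may be technical.

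Endothelial cells line blood vessels and are told from other cells by junction and receptor proteins such as VE-cadherin (CDH5), PECAM1, VWF and the VEGF receptors, and by transcription factors of the ETS and SOX families. In the brain they also form the blood-brain barrier: claudins, occludin and ZO proteins seal the gaps between cells, carrier proteins bring in glucose and amino acids, ABC pumps push drugs back to the blood, and vesicle traffic through the cell is kept low. Wnt ligands act there through FZD4, LRP5 and LRP6 with the helpers RECK and ADGRA2. The ligand NDP acts through FZD4 with the helper TSPAN12. Both routes stabilise beta-catenin in these vessels and maintain that state.

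RNA was measured as whole-number counts per gene symbol, and 2 scales are used. CPM, counts per 1000000 counts of the library total, compares 1 gene between libraries. TPM divides by the length of the merged exons before scaling the library to 1000000, and is the scale on which different genes are ordered. Orders and ratios between genes therefore depend on that length. A gene is written as present when it reached 1 CPM in each of the 5 libraries. By mean CPM, levels are named high (100 or more), moderate (10 to 100), low (1 to 10) and trace (under 1). A gene is near zero when the pooled counts came to less than 0.1 CPM. Values are mean ± SD over the 5 libraries (n = 5), and values by library run from replicate 1 to 5.

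Library totals ran from 17716250 to 26467787 counts, 100380870 in all. A gene with no count in any library could therefore still be at up to 0.0299 CPM, the level that 3 pooled counts would give, and such limits and the Poisson intervals below cover counting error only. Replicates 1 and 2 stood apart from the others, in opposite directions, by transcript length. Over 8983 nuclear coding genes of at least 10 CPM, the deviation of a library from the 5-library mean of log2 CPM had Pearson r = 0.51 with log2 transcript length in replicate 1 and r = -0.69 in replicate 2, against -0.05, -0.06 and 0.26 in replicates 3 to 5. These are correlations across genes, which are not independent replicates. The 899 genes with the longest transcripts (7954 bases or more) had a median deviation of 0.24 in replicate 1 and -0.28 in replicate 2 on the log2 scale, and the 899 genes with the shortest (1733 bases or fewer) of -0.16 and 0.20. RNA quality is not given in the labels, and its part in this was not tested. Levels of long genes are therefore given by library where they carry a result.

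**Figure D1:**
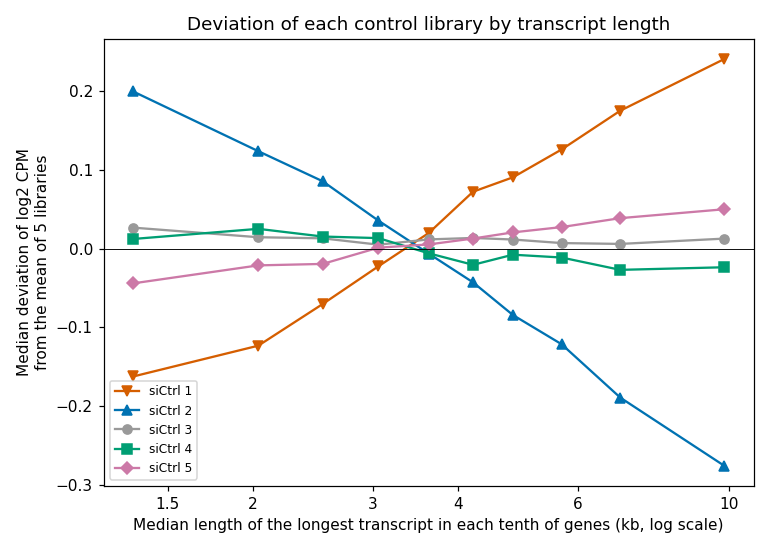
Median deviation of log2 CPM from the mean of the 5 libraries (vertical axis, log2 units) against the median length of the longest annotated transcript (horizontal axis, kilobases, log scale) in 10 bins of nuclear coding genes. Replicate 1 runs from -0.16 in the shortest bin to 0.24 in the longest, replicate 2 from 0.20 to -0.28, and replicates 3 to 5 stay between -0.04 and 0.05.

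Coding genes held 97.7% of counts. Of 19862 coding genes, 11212 (56.4%) were present, and that share is the background for each list below. High levels were reached by 2165 coding genes (10.9%), which held 68.6% of all counts, and moderate levels by 6831 (34.4%), which held 27.9%. Another 2515 were low, 1723 were at trace levels, 2350 were near zero and 4278 had no count. The counts were spread over many genes: 823 ± 27.5 genes per library were needed to reach 50% of counts, and the 10 highest took 6.97% ± 0.248. By TPM, which raises short transcripts, 371 genes sufficed. The share of mitochondrial RNA was 4.44% ± 0.208 of counts. It was even between libraries, from 4.12% to 4.63%. The share of the 81 cytosolic ribosomal protein genes was 5.42% ± 0.609 of counts, and was highest in replicate 2 (6.42%) and lowest in replicate 1 (4.82%).

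By TPM, the highest nuclear transcripts encoded proteins of the actin cytoskeleton, translation, glycolysis and metal handling. The order depends on the length used: 8 of the 20 highest by TPM are among the 20 highest by CPM, where TMSB10 is not and MYH9 and FLNA, of the actin cytoskeleton, are. With the longest transcript as length, 16 of the 20 stay and TMSB10 is the third, after EEF1A1 and ACTG1. TMSB10, thymosin beta 10, a small protein that binds free actin, was highest by merged exon length. Its level was 9623, 11261, 10134, 9813 and 10333 TPM in replicates 1 to 5. EEF1A1, which brings aminoacyl-tRNA to the ribosome, followed at 8899, 10126, 9464, 9854 and 9224 TPM. The ranges of these 2 genes overlap, so their order is not settled by these libraries. Per library the ratio of TMSB10 to EEF1A1 ran from 0.996 to 1.12. On the CPM scale, which counts reads regardless of length, EEF1A1 led all genes at 15798 ± 1210.4 CPM.

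The cytoplasmic actins came next, ACTG1 at 7543, 7711, 7595, 8585 and 8019 TPM and ACTB at 6415 ± 269 TPM. Between them in the order stood MT2A, a metallothionein that binds zinc and copper, at 6861, 7130.1, 6824, 6077 and 6765 TPM. ACTG1 was above MT2A in every library. The ranges of MT2A and ACTB overlap, and in replicate 4 ACTB (6744 TPM) was above MT2A. GAPDH (4451 ± 359 TPM) and ENO1 (3797 ± 320.3 TPM) are glycolytic enzymes, and HSP90AB1 (3722 ± 190.4 TPM) is a constitutive chaperone. YBX1 (3493 ± 121 TPM) encodes an RNA-binding protein, FTL (3232 ± 336 TPM) the ferritin light chain, PFN1 (2995 ± 278 TPM) profilin, LGALS1 (3317 ± 568 TPM) galectin-1 and S100A11 (2453 ± 40.3 TPM) a calcium-binding protein. Ribosomal proteins among the 20 highest were RPL41 (4044 ± 439.9 TPM), RPS2 (3559 ± 541 TPM), RPS12 (3334 ± 221 TPM), RPL8 (3221 ± 434 TPM) and RPL7A (2299 ± 111 TPM). The pseudogenes RPL9P9 (2594 TPM) and RPS28P7 (2496 TPM) also ranked there. They share near-identical sequence with RPL9 and RPS28, so how reads were divided between gene and copy is uncertain. Actins, metallothioneins, EEF1A1 and FTL also have close copies in the genome. Of the 19 neighbouring pairs in this order, 16 had overlapping ranges over the 5 libraries.

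S100A11 was the steadiest of the 20 highest genes, at 450.2 to 489.8 CPM, whereas LGALS1 ran from 699 CPM in replicate 1 to 1204 CPM in replicate 2. Replicates 1 and 2 are also the libraries that differed by length. The longest transcripts of LGALS1 and S100A11 have 637 and 594 bases, and the part of length in these values was not tested. RPS2 showed the same order of libraries as LGALS1, with 1758, 2805, 2449, 2665 and 2323 CPM.

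The highest mitochondrial transcripts stood above all nuclear genes. MT-CO1, MT-CO3 and MT-CO2, which encode the 3 core subunits of cytochrome c oxidase, were at 27948 ± 1172, 24017 ± 1159 and 21032 ± 933 TPM. The 13 mitochondrial mRNAs together held 14.2% ± 0.735 of TPM. MT-CO1 changed little between libraries, from 11218 to 12448 CPM.

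**Figure D2:**
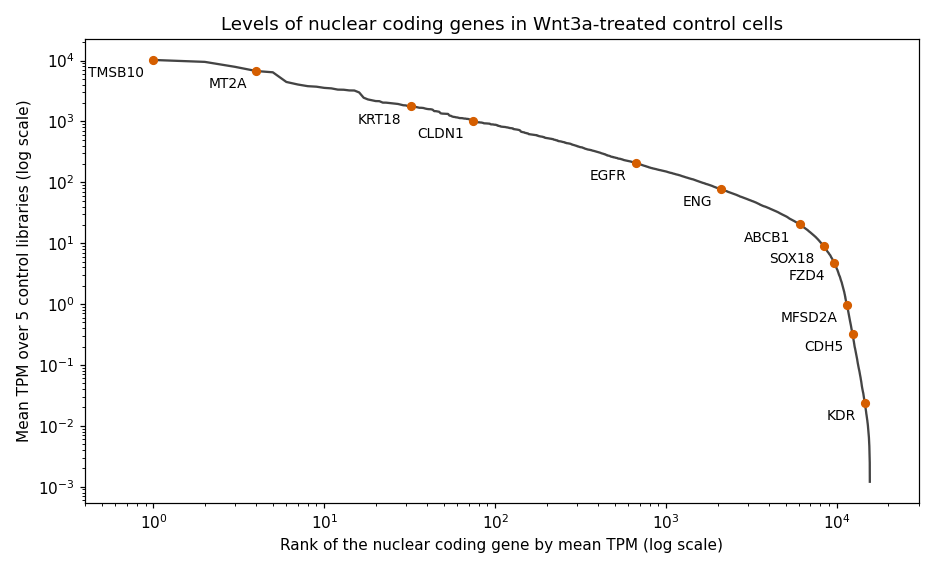
Mean TPM over the 5 control libraries (vertical axis, log scale) of nuclear coding genes ordered from the highest down (horizontal axis, rank, log scale), with 12 genes marked. TMSB10 heads the order at 10233 ± 637 TPM, CLDN1 stands at rank 74 and ABCB1 at rank 6043, and CDH5 and KDR lie on the steep end of the curve at 0.325 and 0.0237 TPM.

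Messenger RNAs of ribosomal proteins and elongation factors are known to begin with a C followed by a run of pyrimidines, the 5′ terminal oligopyrimidine start that places their translation under mTOR control. The windows below are shown because they let the start of the dominant transcripts be compared. Each holds the 35 bases before and the 15 bases from the RefSeq start (GRCh38.p14), 5′ to 3′ on the gene's strand, with the first 5 transcribed bases in capitals.
EEF1A1 (chr6:73521018-73521067, minus strand): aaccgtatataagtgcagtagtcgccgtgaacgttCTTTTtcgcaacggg
RPL41 (chr12:56116598-56116647, plus strand): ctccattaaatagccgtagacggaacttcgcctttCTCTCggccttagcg
RPS12 (chr6:132814534-132814583, plus strand): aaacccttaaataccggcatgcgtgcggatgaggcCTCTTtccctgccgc
RPLP0 (chr12:120201097-120201146, minus strand): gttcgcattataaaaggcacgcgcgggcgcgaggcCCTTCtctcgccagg
ACTG1 (chr17:81512785-81512834, minus strand): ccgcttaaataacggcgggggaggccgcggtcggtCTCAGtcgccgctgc
TMSB10 (chr2:84905621-84905670, plus strand): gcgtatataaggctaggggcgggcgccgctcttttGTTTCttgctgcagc
GAPDH (chr12:6535229-6535278, plus strand): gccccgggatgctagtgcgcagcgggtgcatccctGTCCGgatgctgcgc
EEF1A1, RPL41, RPS12 and RPLP0 (1936 ± 174 TPM, shown after its values were seen) start with C and at least 4 pyrimidines. ACTG1 starts with C but has a purine within the first 5 bases, and TMSB10 and GAPDH start with G. Among the 10960 coding genes with a single start in the RefSeq table, 516 (4.71%) had such a start. It was held by 40 of the 54 ribosomal protein genes in that table (74.1%), by 20 of the 61 members of the 100 highest nuclear coding genes that the table covers (32.8%), and by 5 of the 40 of those that encode no ribosomal protein (12.5%). The letters describe the annotated start only, since the counts do not show where transcripts began.

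MT2A and its neighbour MT1E (2035 ± 215 TPM) keep free zinc and copper low and are switched on by metals through the factor MTF1, which binds metal response elements. The MT2A window is shown because it has rank 4 among nuclear genes by TPM (5 with the longest transcript as length, 13 by CPM). Its promoter is also dense in the core word of that element, TGCACNC or TGCGCNC on either strand. The window runs from 250 bases before the start to 15 after it, with the words in capitals, overlaps allowed.
MT2A (chr16:56608334-56608598, plus strand): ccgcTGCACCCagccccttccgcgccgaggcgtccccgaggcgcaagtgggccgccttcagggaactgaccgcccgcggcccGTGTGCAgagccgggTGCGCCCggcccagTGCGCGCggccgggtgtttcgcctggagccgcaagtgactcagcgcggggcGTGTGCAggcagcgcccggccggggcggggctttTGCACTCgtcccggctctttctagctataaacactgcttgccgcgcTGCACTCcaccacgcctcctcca
It holds 7 such words, and 8 in the full 300 bases of the table. At least 4 words were found in 78 of the 10960 windows (0.712%). MT2A was 3.32 ± 0.183 times as high as MT1E in TPM, with ratios from 3.03 to 3.50 over the libraries.

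Of the genes that define endothelial cells at the surface and junctions, few were present: 11 of 49 (22.4%, against 56.4% of all coding genes). Another 29 were near zero or without a count. The data go against the endothelial label at the markers that define it, and the cells are therefore described here by their genes. In bulk RNA, fewer cells of a type and less RNA per cell cannot be told apart. CDH5 (chr16:66366622-66404786, plus strand in GENCODE release 29, GRCh38), the cadherin of endothelial junctions, gave 14, 6, 12, 8 and 13 counts, a pooled level of 0.528 CPM (95% Poisson interval 0.396 to 0.691). PECAM1, an adhesion receptor of endothelial junctions, gave 0, 0, 3, 4 and 1 counts. VWF, the clotting protein that endothelial cells store and secrete, gave 1, 0, 1, 0 and 3 counts. KDR (chr4:55078259-55125595, minus strand), the main VEGF receptor, gave 2, 0, 0, 0 and 2 counts, 0.0398 CPM (95% Poisson interval 0.0109 to 0.102). TEK, the angiopoietin receptor, had 1 count in all, and its relative TIE1 had 3. FLT1, the other VEGF receptor of vessels, and EMCN, an endothelial sialomucin, had none in any library. PLVAP, which forms the diaphragms of leaky vessels, had 2 and CD34, a stem cell and vessel sialomucin, had 4. No library had more than 14 counts of CDH5, which was at trace level, or more than 4 of PECAM1, which was near zero.

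Several of the endothelial-associated surface genes that were present are also known from other cell types. MCAM, an adhesion protein of endothelial, mural and tumour cells, was at 272, 280.3, 269, 304 and 304 CPM. ESAM, an adhesion protein of endothelial tight junctions and platelets, was at 139.9, 175, 155, 172 and 168 CPM, lowest in replicate 1. PROCR, the protein C receptor, was at 90.5 ± 5.84 CPM, and ENG, a TGF-beta co-receptor, at 81.3, 81.7, 79.8, 92.4 and 86.5 CPM. TM4SF18 was at 72.5 ± 5.82 CPM, EPHB4, a venous ephrin receptor, at 75.4 ± 8.66 CPM and EGFL7, a secreted vessel protein, at 27.5 ± 6.01 CPM. ESAM and PROCR were the highest of the list per length (199 ± 15.2 and 191 ± 8.03 TPM), and stood at percentiles 93.8 and 93.5 of the present coding genes. The 11 genes were completed by the venous factor NR2F2 (16.9 ± 0.855), EFNB2 (5.28 ± 0.72), DLL4 (3.08 ± 0.514) and CXCR4 (2.24 ± 0.444 CPM), which fall outside the rule for named genes, as do NOS3 and ROBO4. NOS3, the endothelial nitric oxide synthase, was at 0.949 ± 0.232 CPM, and ROBO4, a guidance receptor of endothelium, at 0.148 ± 0.0742 CPM. The summed level of all 49 genes was even, 830.2 ± 43.6 CPM, from 767 in replicate 1 to 878 in replicate 4, and MCAM made up 34.4% of it.

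Of the transcription factors tied to the endothelium 19 of 34 were present (55.9%), a share near that of all coding genes. The broadly used ETS factors were high. ETS1 was at 441, 308, 365, 351 and 381 CPM, highest in replicate 1 and lowest in replicate 2. ELK3 was at 234, 188, 204, 187 and 199.7 CPM, with ETS1 above it in each library (a TPM ratio of 1.18 ± 0.0731). EPAS1, the hypoxia factor HIF-2 alpha, was at 166, 126, 142, 162 and 164 CPM. FOXC2 (32.1 ± 1.84 CPM), ETS2 (32.6 ± 1.28 CPM) and PPARD (30.7 ± 2.85 CPM) were moderate. Factors restricted to the lineage were lower. ERG, an ETS factor that maintains endothelial identity, and SOX17 had no count in any library, and TAL1, a vessel and blood factor, had 9 counts in all. Values chosen after they were seen are FLI1, the nearest relative of ERG, at 1.44, 1.34, 1.47, 1.44 and 1.33 CPM, SOX18 at 3.04, 5.46, 5.31, 5.10 and 4.47 CPM, SOX7 at 0.777 ± 0.258 CPM and KLF2, a flow-induced factor, at 3.63 ± 0.66 CPM.

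**Figure D3:**
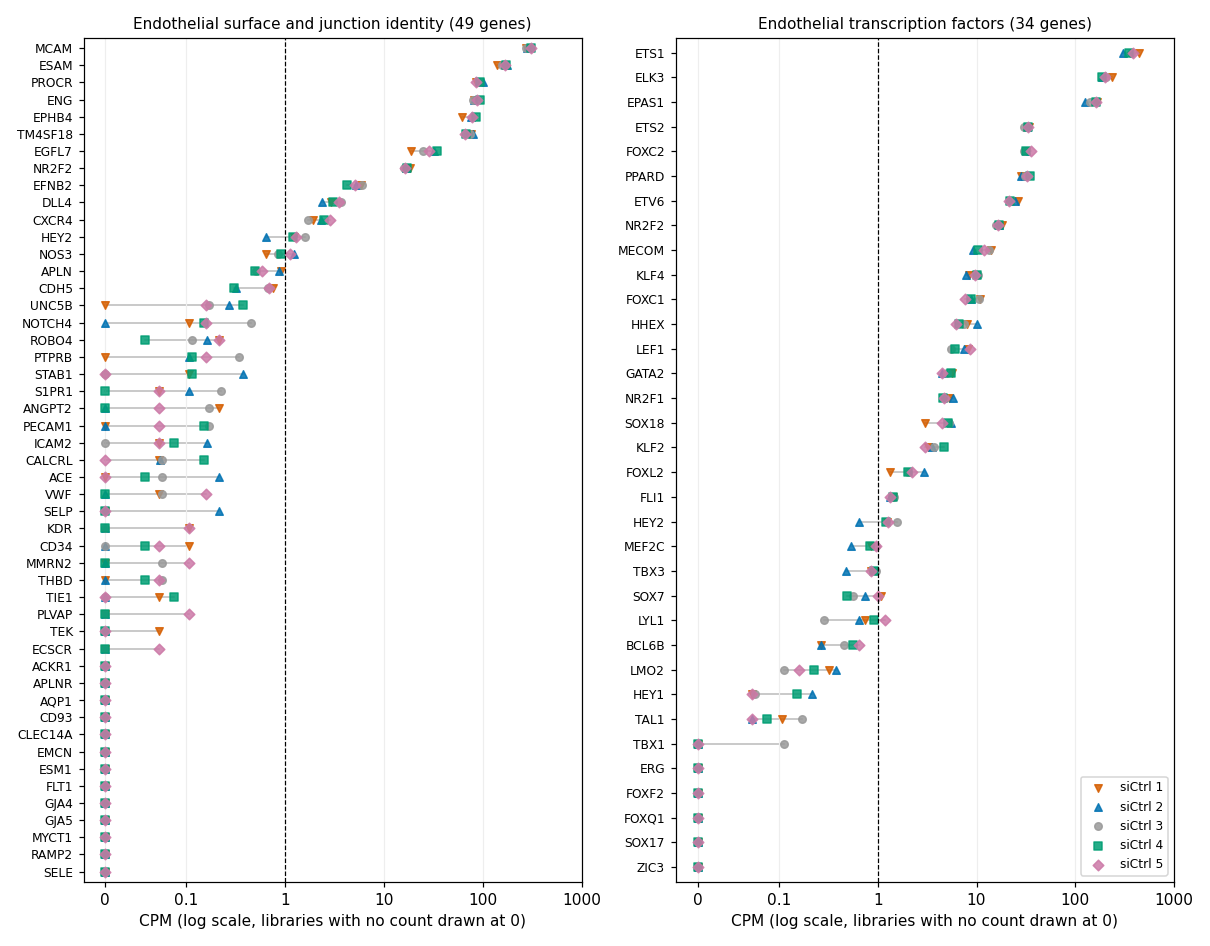
CPM of every gene of the 2 endothelial lists in each of the 5 libraries (horizontal axis, log scale, libraries with no count drawn at 0; dashed line at 1 CPM), with symbols for libraries and grey lines for the range. From MCAM at 286 ± 16.9 CPM the left panel falls to 13 genes with no count in any library, and in the right panel ETS1, ELK3 and EPAS1 stand above 100 CPM while 5 factors, ERG and SOX17 among them, have no count.

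Markers of other cell types were read in the same way. Simple-epithelial keratins were among the highest genes of the transcriptome. KRT18 was at 1711, 1833, 1742, 1851 and 1685 TPM and KRT8, its filament partner, at 1008, 1198, 1222, 1134 and 1059 TPM. The ratio of KRT18 to KRT8 in TPM stayed between 1.43 and 1.70. This order depends on the length used, since the merged exons have 3218 bases for KRT18 and 6881 for KRT8. By CPM, KRT8 was the higher in each library, at 2161 ± 220 against 1584 ± 98.3 CPM. KRT7 was at 674 ± 90.9 TPM and the desmosome protein DSP at 62.8 ± 12.1 TPM. Of the epithelial list, 8 of 28 genes were present (28.6%), and 12 were near zero or without a count, which includes KRT5, KRT14 and KRT20 with no count. Outside the naming rule, EPCAM was at 0.892 ± 0.335 CPM, CDH1, the epithelial cadherin, at 0.224 ± 0.157 CPM and KRT19 at 5 counts in all. VIM, the intermediate filament of mesenchymal and endothelial cells, was at 428, 461, 395, 442 and 444 TPM, which is 0.246 ± 0.0139 of KRT18. FBLN1 (81.1 ± 8.17 TPM) and FN1 (49.1 ± 12.2 TPM) were the other fibroblast-list genes present, 3 of 19 in all, and COL1A2, DCN, PDGFRA and PDPN had no count or 1.

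Markers of mural, glial, neuronal and blood cells follow, to be read against the 56.4% of all coding genes that were present. Among pericyte and smooth muscle genes 4 of 17 were present and 6 near zero, led by MCAM, CSRP1 (84.1 ± 5.90 TPM) and SMTN (43.4 ± 1.999 TPM), with PDGFRB at 4 counts in all. CLDN11, CNP (69.4 ± 3.26 TPM) and MBP (96.1, 80.4, 96.01, 90.2 and 94.96 CPM) were present from the oligodendrocyte list, and the other 8 genes of it, MOG and OLIG2 included, were near zero or without a count. MBP shares its locus with the longer Golli transcripts of other tissues, and symbol-level counts do not tell these apart. From the microglia and leukocyte list only CD14 (1.44 ± 0.373 CPM) was present, 1 of 16, and PTPRC had no count. Astrocyte genes were represented by SOX9, GJA1 and ALDOC, with GFAP at 4 counts and S100B at none. Neuron markers were led by ENO2 (29.2 ± 4.14 CPM), and SNAP25, DCX and STMN2 had no count. Lymphatic endothelial genes had 0 of 6 present. The mesothelial list, which shares KRT8 and KRT18 with the epithelial one, had 4 of 10 present: LRRN4 at 462 ± 73.4 TPM and WT1 at 15.3 ± 1.53 TPM were the others, and MSLN was at trace levels. Astrocyte and neuron lists had 3 of 10 and 3 of 14 present, melanocyte and neural crest 3 of 10, muscle 2 of 10 and hepatocyte 1 of 10. Of the 26 genes in the cancer-testis list, 3 were present (11.5%). MAGED1 (214 ± 14.1 TPM) and MAGED2 (151 ± 12.7 TPM) are also known from normal tissues. The third was CT45A1 (14.7 ± 2.34 TPM), a member of a cluster of near-identical copies.

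Junction genes followed a pattern led by claudins other than CLDN5. Of the tight junction list, 25 of 47 genes were present (53.2%) and 14 were near zero or without a count. CLDN1 (chr3:190305701-190322475, minus strand), a sealing claudin of epithelia and skin, was at 1194, 948, 970.4, 985 and 1062 TPM, rank 74 among nuclear coding genes. CLDN11, known from myelin and testis, was at 252, 227, 231, 181 and 205 TPM. Per library CLDN1 was 4.18 to 5.45 times as high as CLDN11. CLDN5, the main claudin of brain vessels, gave 3, 4, 3, 9 and 3 counts, 0.219 CPM (95% Poisson interval 0.137 to 0.332). CLDN3 had 1 count in all. LSR, the tricellular junction receptor, was at 103, 142, 138, 159 and 148 TPM, lowest in replicate 1. PARD3, a polarity scaffold, was at 85.3 ± 5.82 TPM, and TJP1, the scaffold ZO-1, at 48.4, 29.1, 38.6, 38.6 and 41.6 TPM. OCLN, occludin, was at 16.9, 11.3, 15.2, 13.5 and 16.2 TPM. TJP1 and OCLN were lower in replicate 2 than in the other 4 libraries.

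The windows of CLDN1 and KDR are shown because they belong to a dominant junction gene and to an endothelial receptor near zero. They cover 250 bases before to 15 after the RefSeq start, with each CG in capitals. The RefSeq promoter table used here holds no window for CDH5, PECAM1, VWF or CLDN5.
CLDN1 (chr3:190322432-190322696, minus strand): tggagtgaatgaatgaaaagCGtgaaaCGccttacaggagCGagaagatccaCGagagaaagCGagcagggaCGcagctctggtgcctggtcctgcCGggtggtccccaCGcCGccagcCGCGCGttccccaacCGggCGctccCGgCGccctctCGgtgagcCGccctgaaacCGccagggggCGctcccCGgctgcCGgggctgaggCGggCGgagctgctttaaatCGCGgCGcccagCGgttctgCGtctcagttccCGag
KDR (chr4:55125581-55125845, minus strand): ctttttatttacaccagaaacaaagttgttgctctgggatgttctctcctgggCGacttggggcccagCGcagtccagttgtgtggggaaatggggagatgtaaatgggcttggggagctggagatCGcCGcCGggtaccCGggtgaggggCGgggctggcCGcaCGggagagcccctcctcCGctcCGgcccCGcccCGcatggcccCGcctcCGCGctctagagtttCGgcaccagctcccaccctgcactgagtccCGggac
The printed CLDN1 window holds 30 CG pairs and that of KDR 18. Over the full 300 bases the ratio of observed to expected CG was 0.921 for CLDN1 and 0.697 for KDR, both above 0.6. A CG-rich window was thus found for both of these picked genes. Among coding genes with a single start, the ratio reached 0.6 in 95.3% of high and 34.7% of near-zero ones. KDR is therefore in the minority of its class.

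Adherens junction and cadherin genes were led per length by vinculin and the catenins. VCL, vinculin, was at 301, 195, 246, 265 and 276 TPM, CTNNA1 at 218 ± 17.8 TPM, JUP, plakoglobin, at 245 ± 33.4 TPM and CTNND1, p120 catenin, at 140.1 ± 17.6 TPM. CTNNB1, beta-catenin, was even over the libraries at 411, 379.96, 407, 406 and 396 CPM. CDH2, N-cadherin, was at 92.3, 70.1, 77.7, 74.3 and 87.5 CPM. Per length CDH2 stood at 58.4 ± 7.94 TPM and CDH5 at 0.325 ± 0.133 TPM. The desmosomal cadherins DSG2 (178 ± 30.99 TPM) and DSC3 (85.3 ± 15.7 TPM) were also high by CPM. In all, 20 of 42 genes of this list were present (47.6%). Gap junction genes were fewer, 7 of 20 (35%). GJA1 (connexin 43) was at 91.9 ± 10.7 TPM, GJC1 (connexin 45) at 88.4 ± 12.3 TPM and PANX1 at 57.95 ± 7.37 TPM, whereas the arterial connexins GJA4 and GJA5 had no count.

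Carriers that bring nutrients across the barrier were well represented, with 31 of 44 present (70.5%) and 11 at high levels. SLC38A2, a carrier of small neutral amino acids, was highest at 574, 405, 495, 466 and 505 TPM. SLC7A5, the large neutral amino acid transporter LAT1, was at 343, 312, 373, 392 and 374 TPM, and SLC3A2, its heavy chain, at 130.1, 138, 147, 139.9 and 145 TPM. The heavy chain stood at 0.392 ± 0.0314 of SLC7A5 in TPM. SLC1A5, a glutamine carrier, was at 138 ± 9.27 TPM, SLC29A1, a nucleoside carrier, at 129 ± 10.3 TPM and SLC16A1, the monocarboxylate carrier MCT1, at 129 ± 9.08 TPM. SLC2A1 (chr1:42925375-42959176, minus strand), the glucose transporter GLUT1, was at 92.1, 112, 109, 129.7 and 129 CPM.

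Several carriers known for their place in brain endothelium are given next. MFSD2A, the lipid carrier that keeps brain endothelial transcytosis low, was at 0.534, 1.55, 1.41, 0.642 and 1.28 CPM and was below 1 CPM in replicates 1 and 4. SLCO1C1, a thyroid hormone carrier, had no count, and SLC22A8, an organic anion carrier, had 1. SLC38A5 (0.386 ± 0.307 CPM) and SLCO2B1, an organic anion carrier at 165, 168, 177, 207 and 192 CPM, are given after their values were seen.

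Of the efflux pumps 7 of 11 were present (63.6%), with 6 moderate, 3 low, 1 trace, 1 near zero and none high. ABCC1, a glutathione-conjugate exporter, led at 93.9, 74.99, 91.5, 106 and 103 CPM, followed per length by ABCC4 (86.7 ± 11.1 CPM), ABCA2 (82.7 ± 12.6 CPM), ABCB1, ABCC3 (42.9 ± 5.01 CPM) and ABCC5 (37.8 ± 3.39 CPM). ABCB1 (chr7:87503633-87713323, minus strand), P-glycoprotein, was at 35.2, 30.05, 34.3, 32.3 and 32.6 CPM. ABCC1 exceeded ABCB1 in TPM 2.19 ± 0.262 times. ABCG2, the breast cancer resistance protein, one of the main pumps of the human barrier, was at 1.71, 0.857, 1.07, 1.62 and 1.81 CPM and missed 1 CPM in replicate 2.

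Genes of vesicle traffic and receptor-mediated uptake had the largest share present of the 3 transport lists, with 21 of 27 present (77.8%) and 13 high. CAV1, the coat protein of caveolae, was at 932, 823, 909.6, 877 and 927 TPM, and CAVIN1, which stabilises them, at 756, 735, 807, 796 and 775 TPM. BSG, basigin, the partner of monocarboxylate carriers, was at 643, 832, 769, 875 and 839 TPM, lowest in replicate 1. CLTC, the clathrin heavy chain, was at 338, 221, 271, 267 and 278 TPM, highest in replicate 1 and lowest in replicate 2. TFRC, the transferrin receptor, was at 270.5, 186, 258, 249 and 256 TPM, and TMEM30A, a lipid flippase subunit, at 177 ± 23.3 TPM. Among receptors named in any case, LRP1, a receptor for amyloid and lipoproteins, was at 119, 74.02, 98.4, 143 and 137 CPM, with replicate 2 lowest, and INSR, the insulin receptor, at 17.4, 12.6, 12.9, 14.9 and 16.6 CPM.

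**Figure D4:**
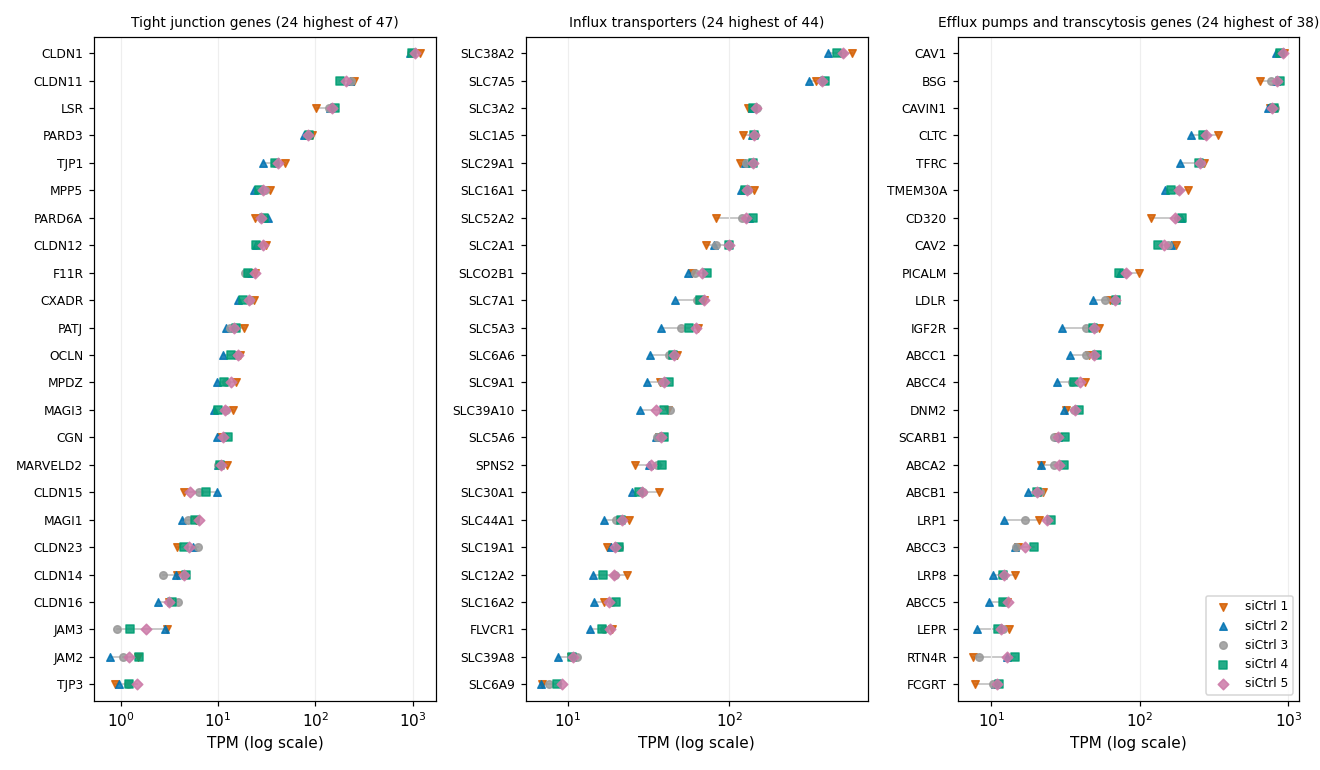
TPM of the 24 highest genes in each of 3 groups of barrier genes (horizontal axis, log scale) in each of the 5 libraries, with symbols for libraries and grey lines for the range. CLDN1 stands apart from the other junction genes at 1032 ± 100.4 TPM, SLC38A2 and SLC7A5 lead the influx carriers at 489 ± 61.5 and 359 ± 31.4 TPM, and CAV1, BSG and CAVIN1 lie above the pumps, of which ABCC1 is highest at 44.5 ± 6.70 TPM.

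Genes of endothelial activation and leukocyte recruitment were present in 22 of 32 cases (68.8%), although the selectins SELE and SELP had 0 and 4 counts in all. PLAU, the urokinase plasminogen activator, was at 1242, 1339.7, 1235, 1466 and 1433 TPM and CXCL1, a neutrophil chemokine, at 1285, 1199, 1145, 993 and 1119 TPM. ICAM1, the leukocyte ligand, was at 446, 420.4, 451, 541 and 544 TPM, higher in replicates 4 and 5 than in the other 3. CD40, a TNF-family receptor, was at 283 ± 24.1 TPM, CXCL8 at 167 ± 13.1 TPM and IL6 at 149 ± 6.15 TPM.

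Surface receptors were covered by 10 lists with 350 distinct genes, of which 191 (54.6%) were present and 42 high. Among receptor tyrosine kinases 21 of 55 were present (38.2%). EGFR (chr7:55019021-55211628, plus strand), the receptor of EGF and its relatives, was at 865, 522, 708, 747 and 769 CPM. MET, the HGF receptor, was at 481, 316, 402, 382 and 416 CPM. Both were highest in replicate 1 and lowest in replicate 2, and their ratio in TPM stayed between 0.929 and 1.10. EPHA2, an ephrin receptor, was at 345 ± 27.8 TPM, the highest of this list per length. DDR1, a collagen receptor, was at 151 ± 27.7 TPM, AXL at 141 ± 7.32 TPM and MST1R, the MSP receptor, at 75.8 ± 5.46 TPM. The vessel and mural kinases KDR, FLT1, FLT4, TEK, TIE1, PDGFRA and PDGFRB had between 0 and 4 counts each in all.

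Integrins were led by the laminin and collagen receptor chains ITGB1 (1102, 778, 1009.8, 968 and 984 TPM) and ITGA3 (558, 523, 595, 674 and 651 TPM), in a list with 13 of 26 present (50%). ITGB1 was 1.44 to 1.97 times as high as ITGA3 in TPM, with merged exons of 6011 and 9802 bases. By CPM they were close, at 1619 ± 159 and 1638 ± 148 CPM. ITGAV (219.9 ± 40.4 TPM), ITGB5 (178 ± 10.8 TPM), ITGA6 (147 ± 27.5 TPM) and the fibronectin receptor chain ITGA5 (102 ± 8.55 TPM) followed. ITGA3 was 5.88 ± 0.196 times as high as ITGA5 in TPM.

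Wnt receptors and co-receptors were present in 20 of 25 cases (80%, against 56.4% of all coding genes). FZD6 was highest at 104, 78.01, 88.2, 83.4 and 86.8 TPM, ahead of LGR4, an R-spondin receptor, at 60.9 ± 7.83 TPM, PTK7 at 49.1 ± 5.76 TPM, LRP5 at 48.04 ± 7.71 TPM, KREMEN2, a partner of DKK proteins, at 33.1 ± 6.16 TPM and ROR1 at 31.7 ± 4.77 TPM. LRP5 was 3.28 ± 0.694 times as high as LRP6 (15.2 ± 3.57 TPM) in TPM. The ratio was lowest in replicate 1 (2.27) and highest in replicate 2 (4.14), where LRP6 was at 28.1 CPM against 43.6 to 52.5 CPM elsewhere. Replicates 1 and 2 are the libraries that differed by transcript length, and the part of length in this ratio was not tested. FZD4, the receptor of the brain vasculature, was at 10.1, 9.37, 9.48, 9.60 and 9.69 CPM. RECK was at 16.3, 14.9, 13.4, 14.02 and 14.1 CPM and TSPAN12 at 24.1, 23.8, 24.8, 22.1 and 23.5 CPM. ADGRA2, the partner of RECK, gave 11, 18, 17, 57 and 48 counts, which is 0.587, 0.964, 0.96, 2.15 and 2.55 CPM. It was above 2 CPM in replicates 4 and 5 and below 1 CPM in the other 3.

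Smaller receptor families were read next. Of the Notch receptors and ligands 6 of 9 were present. NOTCH2 was at 276, 149, 226, 258 and 268 CPM and exceeded NOTCH1 (26.03 ± 4.16 CPM) by 4.60 to 7.27 times in TPM, and JAG2 was the highest Notch ligand at 63.3 ± 5.54 CPM. TGFBR2, the type 2 TGF-beta receptor, was at 128 ± 9.98 CPM, and 11 of 14 of the TGF-beta and BMP receptors were present, without the endothelial ACVRL1 (1 count). PLXNB2, a semaphorin receptor, was at 537, 543, 607, 726 and 663 CPM in a list with 11 of 21 present. In the TNF receptor family, where 15 of 29 were present, TNFRSF12A, the TWEAK receptor, was at 109, 205, 196, 199.6 and 182 CPM, with replicate 1 well below the other 4.

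Among cytokine receptors 27 of 42 were present. OSMR, the oncostatin M receptor, was at 480.4, 339, 402, 422 and 458 CPM and IL6ST, its gp130 partner, at 493, 317, 448, 395 and 403 CPM. IFNGR2 was at 167 ± 5.42 TPM. G protein-coupled receptors of vessels were present in 32 of 74 cases (43.2%), led by ADGRG6 at 574, 376, 479.5, 479 and 505 CPM, ADORA2B, an adenosine receptor, at 110.1 ± 4.27 TPM and GPRC5A at 65.6 ± 7.97 TPM. S1PR1, the sphingosine receptor of endothelium, had 8 counts in all, and it is given after its value was seen. Of scavenger and other membrane proteins, 39 of 59 were present, with SDC4, a syndecan, at 665 ± 27.1 TPM, CD63 at 552 ± 40.4 TPM and CD44, the hyaluronan receptor, at 377 ± 34.3 TPM.

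Transcription factors were covered by 12 lists with 534 distinct genes, 316 of them present (59.2%) and 44 high. HMGA1, an architectural chromatin protein, was highest at 1408, 1613, 1650.3, 1633 and 1639 TPM, lowest in replicate 1. MYBL2, a factor of proliferating cells, was at 505, 489.5, 527, 555 and 498 TPM. ATF4, the effector of the integrated stress response, was at 418 ± 22.9 TPM, the AP-1 member FOSL1 at 275 ± 17.4 TPM, BHLHE40 at 299 ± 24.5 TPM and HMGB2 at 239.7 ± 16.2 TPM. HIF1A, the hypoxia factor, was at 218 ± 28.2 TPM, which is 2.93 ± 0.343 times EPAS1. YAP1, the Hippo effector, was at 147 ± 15.9 TPM, SMAD3, a TGF-beta effector, at 131 ± 14.7 TPM, MYC at 151 ± 8.53 TPM, KLF6 at 139 ± 13.9 TPM and ID1, a BMP target, at 198 ± 14.3 TPM. NFKB2 (152 ± 14.998 TPM) and STAT3 (109 ± 11.9 TPM) are inflammatory factors, a list of which 20 of 26 were present.

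Families that specify lineages were read one by one. Of the SOX factors 5 of 19 were present, with SOX9 at 99.2 ± 12.2 TPM and SOX12 at 55.5 ± 5.65 TPM. Forkhead factors were led by FOXM1, a mitotic regulator, at 112 ± 12.9 TPM, with 18 of 41 present. CBFB (136 ± 18.2 TPM) was the highest of the GATA, RUNX, TBX and MEF2 list, where 8 of 24 were present, and NR2F6 (99.9 ± 13.1 TPM) of the nuclear receptors, 27 of 48. PAX8 (chr2:113215997-113278950, minus strand), a factor of kidney, thyroid and Müllerian duct development, was at 105, 109, 112, 115 and 114 CPM. PAX2, a related factor of kidney and Müllerian duct development, was at 46.9, 51.8, 51.4, 55.4 and 54.2 CPM. Both were found in every library with little spread, and PAX8 was 1.81 ± 0.0565 times PAX2 in TPM. HOX genes were present in 23 of 38 cases, none of them high, with HOXB7 highest at 36.7 ± 1.70 TPM. The remaining families were present in 17 of 27 cases for ETS factors, 18 of 26 for Kruppel-like and SP factors, 43 of 86 for other homeobox, PAX and POU factors, 35 of 68 for helix-loop-helix factors, 37 of 47 for the AP-1, ATF and CEBP group and 65 of 84 for SMAD, TEAD, TCF, E2F and other signal-regulated factors.

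**Figure D5:**
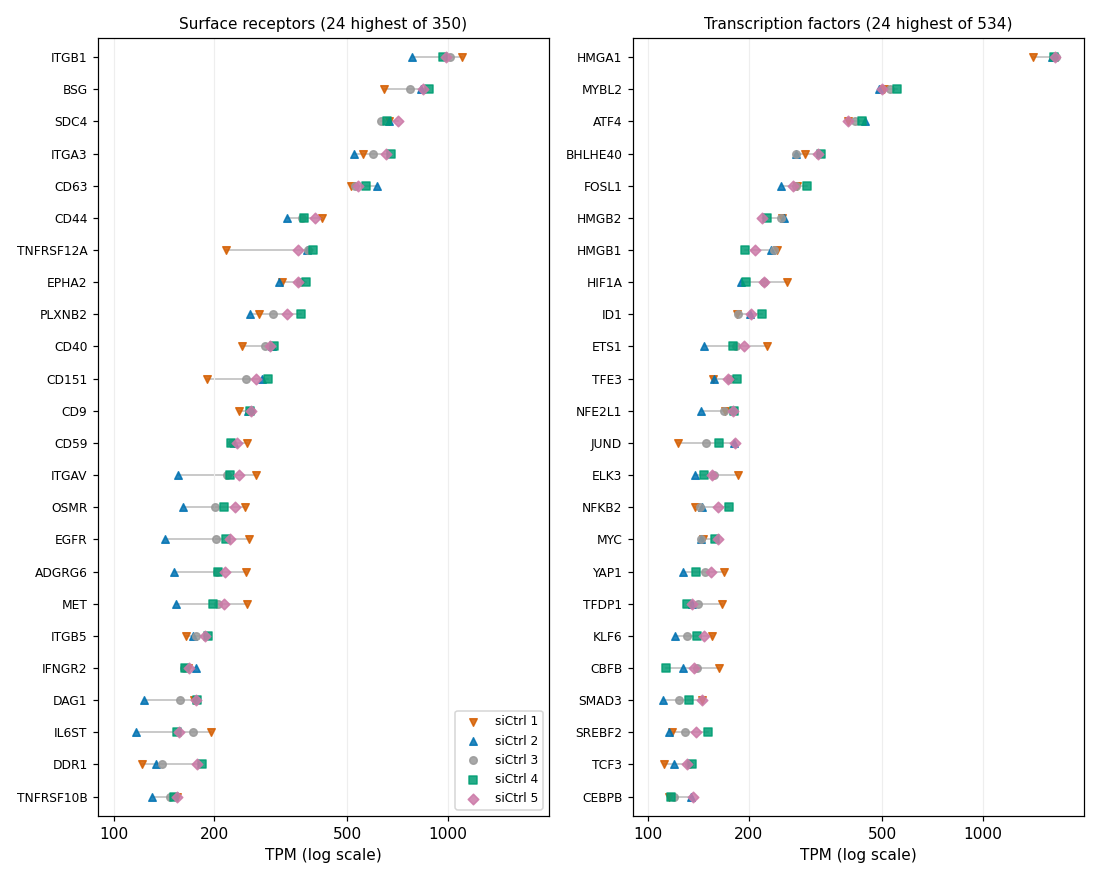
TPM of the 24 highest surface receptors of 350 listed and the 24 highest transcription factors of 534 listed (horizontal axes, log scale) in each of the 5 libraries, with symbols for libraries and grey lines for the range. ITGB1 heads the receptors at 968 ± 118 TPM and HMGA1 the factors at 1589 ± 102 TPM, and EGFR, MET and OSMR are lowest in replicate 2.

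Inside the cell, Wnt signals pass through dishevelled, the axin complex and beta-catenin to TCF/LEF factors. All 30 listed transducers of beta-catenin signalling were present. AES, a Groucho-type co-repressor now named TLE5, was highest at 156 ± 16.96 TPM, with DVL1, a dishevelled adaptor, at 138 ± 20.7 TPM and CTNNB1 at 120.4 ± 6.92 TPM. USP9X, the deubiquitinase that the rest of the study targets, was at 424, 281, 331, 323 and 353 CPM with the control siRNA. Of the nuclear partners, TCF7L2 was at 15.05, 13.02, 11.9, 13.1 and 15.5 CPM and LEF1, an endothelial Wnt target, at 8.22, 7.44, 5.48, 6.12 and 8.57 CPM. AXIN2, the classic feedback target of beta-catenin, gave 17, 18, 4, 12 and 10 counts, 0.608 CPM (95% Poisson interval 0.465 to 0.781). Of the target and feedback list 18 of 31 were present (58.1%). Its highest members, CCND1 (572 ± 51.4 TPM), CYR61 (454 ± 22.5 TPM), CD44 and MYC, also answer to other pathways. DKK3 was at 152 ± 8.56 TPM and NOTUM, a Wnt-inactivating enzyme, at 18.3, 26.1, 21.1, 28.2 and 28.1 CPM, while APCDD1, DKK2, DKK4, SFRP1 and WIF1 had no count and RNF43 had 2. Without unstimulated cells, the part of Wnt3a in these levels cannot be told apart. RNA of 7 of 24 Wnt ligands was present (29.2%, against 56.4% of all coding genes), and 12 were near zero or without a count. Those present were led by WNT5B (91.4, 110.5, 102, 96.9 and 98.4 CPM) and WNT7B (62.3, 70.3, 70.4, 82.1 and 78.1 CPM). WNT7B was 0.622 ± 0.0747 of WNT5B in TPM. WNT3A itself had no count, as had NDP, the other ligand of FZD4.

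Other programs were read by their lists. Of the cell cycle genes 31 of 33 were present (93.9%), with PCNA at 888 ± 49.7 TPM, CCNB1 at 599 ± 18.7 TPM and TOP2A at 388 ± 57.9 TPM. Matrix genes were present in 26 of 45 cases (57.8%), near the share of all coding genes. TIMP1, a protease inhibitor, was at 604 to 704 TPM, AGRN, agrin, at 1094, 1248, 1414, 1689 and 1592 CPM and LAMA5, a laminin chain of vessel and epithelial basement membranes, at 549, 489, 616, 772 and 689 CPM. LAMB3, a chain of epithelial laminin, was at 169.5 ± 19.4 TPM and LAMC1, a chain of most laminins, at 149 ± 23.6 TPM, and the endothelial chain LAMA4 had 1 count. Stress and immediate early genes were present in 34 of 39 cases. HSPA8, the constitutive HSP70, was at 2222 ± 101 TPM. Angiogenic factors were present in 29 of 42 cases, with GDF15 at 389 ± 50.8 TPM, SEMA3C at 198 ± 25.4 TPM, TGFB1 at 192 ± 9.16 TPM and PDGFB at 158 ± 8.36 TPM, while ANGPT2, which endothelial cells store, had 8 counts in all. Among intermediate filament genes 12 of 32 were present, with the lamin gene LMNA at 306 ± 27.3 TPM.

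The spread between libraries was small for most genes. Over 9221 genes of at least 10 CPM the median CV was 10.5%, and the median biological CV, the part left after counting error, was 9.83%. By level it was 10.1% for moderate and 8.97% for high coding genes. Low coding genes lie under the 10 CPM limit, and their median of 13.6% is less certain. Of these 2515 genes, 406 varied no more than counting error, against 8 of the 2165 high ones. The list members above 10 CPM had medians of 10.7% for vascular and barrier genes, 10.8% for receptors and 9.63% for transcription factors. Replicates 1 and 2 held many of the extremes. Of the 200 most variable coding genes replicate 1 held the highest value in 135, and replicate 2 the lowest in 123, against 39.4% and 30.5% over all 8983 genes. Without these 2 libraries the median biological CV was 5.04%. Pairs of libraries had Pearson correlations of log2 CPM across genes between 0.966 (replicates 1 and 2) and 0.995 (replicates 4 and 5). Every pair differed by more than counting noise, with a chi-square per degree of freedom of at least 5.51, so none looked like a library deposited again.

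The 10 most variable genes held 2 main kinds. In the first, the gene has a near-identical copy, and the part of read division in the spread was not tested. U2AF1, a splicing factor subunit, had 54.4, 16.01, 13.04, 4.65 and 3.99 CPM, and U2AF1L5, its copy on the same chromosome, 2.29, 5.84, 7.96, 6.23 and 41.9 CPM. The sum of both still had a CV of 61.4%. SMN1 stood at 58.4 CPM in replicate 3 and between 13.7 and 17.5 CPM in the other 4 libraries, while its copy SMN2 varied by only 13.2%. CBS was at 23.2, 28.4, 26.9, 60.3 and 54.3 CPM, higher in replicates 4 and 5, with CBSL at a CV of 8.71%. Levels of these genes are uncertain. Among the rest, RPL22P1 and TCAF1P1 are pseudogenes, and RN7SL2 is a small structured RNA. In the second kind the transcript is long: AKAP9 (41.1% biological CV), the mitotic kinesin CENPE (40.2%) and N4BP2 (40.1%) were each highest in replicate 1 and lowest in replicate 2. CENPE, for example, was at 65.7, 25.7, 42.5, 32.4 and 30.8 CPM.

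At the other end, 8 high and 270 moderate genes varied no more than counting error. The 10 with the lowest excess over it were FAM120C, GANC, AMZ2P1, GSTZ1, GTF2IRD1, INO80C, N6AMT1, NOP14-AS1, GEMIN2 and PPARG. All lie near the 10 CPM limit, where counting error is largest, so the choice favours low counts. PPARG, a lipid-sensing nuclear receptor, was at 13.6, 13.2, 13.4, 12.7 and 12.8 CPM.

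Levels went with the base composition of the promoter window, which is given as a description. The share of windows with an observed to expected CG ratio of at least 0.6 was 95.3% for 1224 high coding genes and 92.7% for 3943 moderate ones. It was 78.6% for low, 50.8% for trace, 34.7% for near-zero genes and 26.2% for the 2386 genes with no count, against 67.1% over all 10960. The word TATAAA between 40 and 15 bases before the start was found in 2.86% of high genes, 0.964% of moderate ones and 10.4% of genes with no count. In the endothelial surface list the ratio reached 0.6 in 4 of the 7 covered genes that were present and in 5 of the 16 that were near zero or without a count. The table covers 144 of the 297 vascular and barrier genes with a single start, so these counts are of part of the lists.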

How the data were processed

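Per the labels' protocols, TRIzol was used for extraction and libraries came from a stranded mRNA preparation. The authors deposited 1 table of whole-number counts per gene symbol, and the 5 control columns of it were analysed, each matched to its sample by name. The submitters' processing notes name RSEM, DESeq2 and hg38 without a role. Whether the counts are rounded RSEM estimates, the strand setting, the aligner and the annotation are not given in the sources used here. Of 58735 lines, 56923 (96.9%) matched GENCODE release 29 by symbol. The other lines held 0.444% of counts, 0.237% on 27 lines whose names read as dates. 1745 lines share a symbol with another line.

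CPM was computed on raw library totals, and TPM from merged exon lengths of that annotation. The biological CV is the root of the squared CV less the counting part. It was tested on simulated data of known spread, where its median came out slightly below the true value. No test between groups was made, since all libraries are of 1 group, and intervals are exact Poisson intervals (95%). The labels do not pair the libraries.

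The members and 52 gene lists (1492 of 1498 genes matched) were chosen with earlier results of these data known. The rule for named genes took the 20 nuclear and 3 mitochondrial genes of highest TPM, up to 6 of highest TPM per list (4 for cell types), the 10 most and 10 least variable genes of at least 10 CPM, and a set of barrier, junction and Wnt genes. Not every gene it selects is printed, and genes outside it are NR2F2, EFNB2, DLL4, CXCR4, NOS3, ROBO4, FLI1, SOX18, SOX7, KLF2, EPCAM, CDH1, KRT19, SLC38A5, SLCO2B1, S1PR1, RPLP0 and those named only for having few or no counts. Alternatives were TMM totals (edgeR 4.0.16), DESeq2 1.42.0 size factors, totals without mitochondrial genes, thresholds of 0.5 and 2 CPM or none, other lengths, and leaving out each replicate. Leaving out replicates 1 and 2 together was added after seeing the data. Work was done in R 4.3.3 and Python 3.11.15. Promoter windows are from RefSeq (GRCh38.p14).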

Additional observations from a re-analysis of the deposited data

Results flagged for a closer look

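There were 233 checks of the 5 libraries, on 19 library measures and 214 of the genes named here. In 15 of them, a library's distance to its nearest neighbour exceeded 0.71 of the whole range, Dixon's limit for 5 values. Some named genes were not checked, among them the pseudogene RPL22P1, at 29.5 CPM in replicate 1 and 8.65 to 13.4 CPM in the others. The share flagged was 6.44%. It cannot be set against a chance rate, because some genes were picked for their spread in these same libraries. The genes are also not independent of each other. Library 1 was the one apart in 7 of the 15, library 2 in 4, library 5 in 2 and libraries 3 and 4 in 1 each.

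Library 4 had 26467787 counts where the others had 17716250 to 18786854. Library 1 was low in SLC1A5 (110.1 CPM, others 129.9 to 135.1), TNFRSF12A (109 CPM, others 182 to 205), HMGA1 (891 CPM, others 1044 to 1099), SOX12 (58.8 CPM, others 72.1 to 76.9) and TGFB1 (157 CPM, others 174 to 179). It was high in U2AF1 (54.4 CPM, others 3.99 to 16.01) and N4BP2 (23.1 CPM, others 8.62 to 12.2). Library 2 was low in TFRC (430.1 CPM, others 539.5 to 580.1) and high in MT-CO3 (5968 CPM, others 4973 to 5216), IFNGR2 (153 CPM, others 133 to 137) and HOXB7 (17.6 CPM, others 14.8 to 15.6). Library 5 was low in the adenosine receptor gene ADORA2B (73.8 CPM, others 78.9 to 80.04) and high in U2AF1L5 (41.9 CPM, others 2.29 to 7.96). Library 3 was high in SMN1 (58.4 CPM, others 13.7 to 17.5). U2AF1, U2AF1L5 and SMN1 have near-identical copies. Libraries 1 and 2 are also those with the length-dependent deviation, and its part in these values was not tested.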

How the results depend on the processing

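The number of coding genes present (11212) ran from 11226 to 11267 with 1 replicate left out and from 10702 at 2 CPM to 15584 with no threshold. Genes holding 50% of counts numbered 823.2 by CPM, 371.2 by TPM and 815 to 834 with 1 replicate left out. Of the 20 highest genes by TPM, 8 stayed among the 20 highest without length correction (CPM), 16 with the longest transcript as length, and 20 with any 1 replicate left out. The median biological CV (9.83%) was 14.5% with no filter on level, 7.19% to 10.97% with 1 replicate left out (7.19% without replicate 1) and 5.04% without replicates 1 and 2. Endothelial surface genes present numbered between 10 and 13 over the alternatives run, endothelial factors between 17 and 21 and tight junction genes between 21 and 27. Over all lists 568 of 572 counts stayed within 1.5 times, and the exceptions were fibroblast (5 at 0.5 CPM), leukocyte (2 at 0.5 and 0 at 2 CPM) and hepatocyte (0 at 2 CPM) genes. Of 2052 recomputed gene levels 2033 moved by less than the SD between libraries. The other 19 moved under totals without mitochondrial genes, and scaled levels were 0.988 to 1.05 times the reported ones. No paired analysis was possible because all libraries belong to 1 group. Depth limits genes with no count to 0.0299 CPM or less.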

Other observations

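Genes named here were chosen after their values were seen. Long non-coding RNAs held 0.561% of counts. NORAD, which binds PUMILIO proteins, was at 487, 362, 381, 363 and 425 CPM in replicates 1 to 5, and FGD5-AS1 at 260.2, 212, 224, 219.6 and 228 CPM. Both were highest in replicate 1. The snoRNA host gene GAS5 was at 84.1 ± 6.23 CPM. TERT, the telomerase catalytic subunit, which most differentiated cells keep silent, was at 12.2, 13.2, 16.3, 15.4 and 14.5 CPM and thus present in every library. ASNS, asparagine synthetase and a textbook target of ATF4, was at 0.747, 0.268, 0.734, 1.28 and 1.44 CPM, below 1 CPM in replicates 1 to 3. ATF4 RNA was at 270 to 328 CPM, and the counts do not show ATF4 protein or activity. SOD2, a mitochondrial superoxide dismutase induced by inflammatory signals, had 2 lines in the table, 1 at 1232 ± 99.0 CPM and 1 with 3 pooled counts. The basement membrane collagens COL4A1 (152 ± 16.8 CPM) and COL4A2 (317 ± 33.04 CPM) were high, and COL4A2 was 1.46 to 1.70 times COL4A1 in TPM. MITF (34.4 ± 3.16 CPM) and TFAP2A (27.3 ± 4.72 CPM) were present from the melanocyte and neural crest list, TNNT1 (78.2 ± 12.1 CPM) and NKX2-5 (16.9 ± 2.39 CPM) from the muscle list, and SERPINA1 (2.73 ± 0.725 CPM) was the hepatocyte gene present.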
